A study of Mus musculus with 12 samples.

Results

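The genes described here encode subunits of the phagocyte NADPH oxidase, and were taken by name from the deposited table of group values: CYBA, CYBB, NCF1, NCF4 and RAC2, 5 of the 13957 gene symbols listed. All 5 were listed above the lesion among 13647 entries, and 4 were listed below it among 12338 entries, where NCF1 was not listed. The samples were 12 RNA-seq libraries of spinal cord from male mice that expressed human ApoE4 and were operated at 4 months of age. Every mouse had a contusion at the level of thoracic vertebra 9, and tissue just above or just below the lesion was collected at 14 days. The 4 groups of 3 libraries were ApoE4 synj1+/+ above, ApoE4 synj1+/- above, ApoE4 synj1+/+ below and ApoE4 synj1+/- below, where synj1+/- marks mice with 1 inactive allele of synaptojanin 1. The authors list 3 mice per genotype for RNA-seq, with segments taken above and below the lesion. The groups above and below may therefore hold the same mice, and the sites cannot be read as independent sets of animals. No sham or ApoE3 library was analysed here, so each comparison is between injured ApoE4 cords.

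The phagocyte NADPH oxidase transfers electrons from NADPH across a membrane to oxygen, and the superoxide it makes is used by neutrophils, macrophages and microglia against microbes and in signaling. CYBB (NOX2, gp91phox) is the catalytic chain and is held in the membrane by CYBA (p22phox). NCF1 (p47phox) and NCF4 (p40phox) wait in the cytosol until the cell is stimulated, and then join the membrane pair together with the small GTPase RAC2. In the injured cord this enzyme is best known from microglia and from macrophages that enter from the blood. CYBA is less restricted than the others, since it also serves NADPH oxidases of other cell types.

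The deposited table gives 1 value per gene, genotype and site, which combines the 3 libraries of a group. The lowest deposited value is exactly 1, so the values were read as FPKM (fragments scaled to transcript length and sequencing depth) plus 1, and levels are printed below as FPKM with that 1 removed. Ratios are of the synj1+/- group over the synj1+/+ group, as log2 of FPKM plus 1, so that ratios of weakly expressed genes are drawn toward 0. Since the table has 0 columns of single libraries, no spread between libraries and no confidence interval can be computed from it. The authors' own p-values in the table were not used, so no value below carries a test. The table holds no read totals, but the libraries of a site had been reduced to the same number of reads. A gene was counted as lower or higher when its ratio was at least 1.5-fold, which is 0.58 on the log2 scale, and each count of members is read beside the share of all genes past the same limit. SYNJ1, which the genotype should lower, was higher in cord labelled synj1+/-, at 1904 against 2403 FPKM above the lesion and at 1846 against 2592 FPKM below it. Every direction below is therefore that of the labels, and this gene runs against them. The authors state that the genotypes of the mice were checked by PCR, and why SYNJ1 runs against the labels was not tested.

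In the GENCODE annotation of GRCm38, CYBA lies on chromosome 8 from 122424776 to 122432930, CYBB on chromosome X from 9435252 to 9487771 and NCF1 on chromosome 5 from 134220053 to 134229625, all on the minus strand. NCF4 lies on chromosome 15 from 78244801 to 78262580 on the plus strand, and RAC2 on the same chromosome from 78559167 to 78572783 on the minus strand, with 296586 bases and 10 protein-coding genes between them. CYBA overlaps GM20388 on the opposite strand but shares 0 exonic bases with it. NCF1 shares 408 exonic bases with GTF2IRD2 on the opposite strand, and whether strand was used in counting is not given in the sources used here, so reads of that stretch may not be separable. CYBB, NCF4 and RAC2 overlap no other annotated gene.

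The upstream sequences of the members that the RefSeq promoter table (GRCm38.p6) holds are shown because the members' ratios are set below beside those of 2 regulators of myeloid promoters, PU.1 and IRF8. The table holds 3 of the 5 members (CYBA, CYBB and NCF1), and NCF4 and RAC2 are not among them. Each line gives the 200 bases that end just before the transcription start, 5′ to 3′ on the gene's strand. They span chr8:122432941-122433140 for CYBA, chrX:9469325-9469524 for CYBB and chr5:134229626-134229825 for NCF1, all on the minus strand. The start used for CYBB lies inside the annotated span of the gene, which has a longer model. Capitals mark matches on either strand to GAAA, any 2 bases and GAAA again (below, the GAAA repeat), a spacing known from elements bound by interferon regulatory factors, or to CCAAT.
CYBB: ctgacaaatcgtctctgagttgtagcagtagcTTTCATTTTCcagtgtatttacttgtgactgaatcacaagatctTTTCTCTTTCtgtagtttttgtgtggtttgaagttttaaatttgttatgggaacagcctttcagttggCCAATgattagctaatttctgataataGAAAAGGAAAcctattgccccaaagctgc
NCF1: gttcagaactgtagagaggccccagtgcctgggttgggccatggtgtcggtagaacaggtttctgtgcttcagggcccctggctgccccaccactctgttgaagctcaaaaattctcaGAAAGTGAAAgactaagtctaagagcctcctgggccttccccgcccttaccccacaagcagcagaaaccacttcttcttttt
CYBA: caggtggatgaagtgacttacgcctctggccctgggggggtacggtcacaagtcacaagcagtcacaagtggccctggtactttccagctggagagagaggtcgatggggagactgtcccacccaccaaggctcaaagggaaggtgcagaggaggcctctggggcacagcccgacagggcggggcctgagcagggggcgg

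Over windows of 300 bases, from 250 before the start to 50 after it, CYBB held 3 matches to the GAAA repeat, which begin 168, 124 and 29 bases before the start, and 1 match to CCAAT at 56 bases before it. NCF1 held 1 match to the GAAA repeat, at 82 bases before the start. A match to GAGGAA, the core of PU.1 sites, was found only for CYBB among these 3 windows, and begins at base 10 after the start. No 2 of these matches overlap. Of all 32851 windows in that table, 3.44% held the GAAA repeat, 28.3% held GAGGAA and 37.4% held CCAAT on either strand. The CYBA window held 0 matches to these 3 motifs, and its printed stretch was richer in G and C (64%) than those of NCF1 (53.5%) and CYBB (36.5%). A match describes the letters of the window and does not show that a factor binds there.

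Levels were compared first, since FPKM is per length. Above the lesion in cord labelled synj1+/+, NCF1 was highest among the members at 45.2 FPKM, followed by CYBA at 27.7, NCF4 at 17.7, CYBB at 11.8 and RAC2 at 2.84. The same order held in cord labelled synj1+/- above the lesion, and the 4 members listed below it kept the order CYBA, NCF4, CYBB and RAC2 in both genotypes. Whether neighbours in these orders differ beyond the spread of the libraries cannot be computed. The level of CYBB was as high as or above that of 24.4% of the genes listed above the lesion, that of NCF1 56.1% and that of RAC2 5.28%. The highest level exceeded the lowest 15.9-fold in cord labelled synj1+/+ above the lesion.

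**Figure D1:**
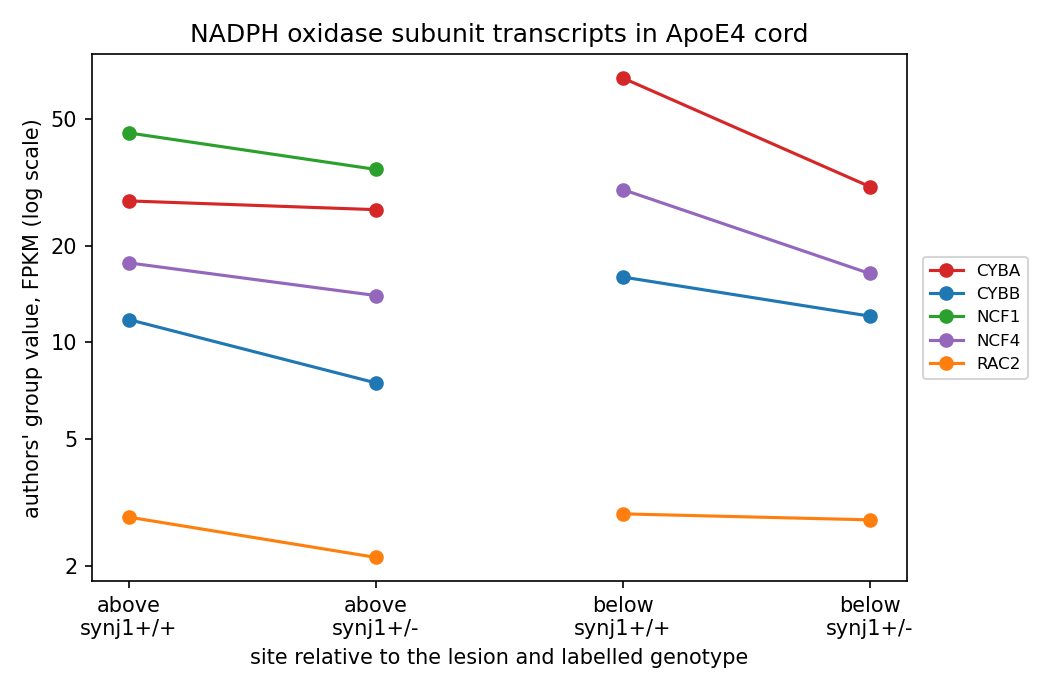
Group values of the NADPH oxidase subunits in FPKM (log axis) for the 4 groups, with a line joining the genotypes within a site. Each point combines 3 libraries and has no error bar. All lines slope down from synj1+/+ to synj1+/-, CYBA most steeply below the lesion (67.1 to 30.7 FPKM) and RAC2 least, also below it (2.91 to 2.78 FPKM).

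All 5 members had a ratio under 0 above the lesion, and so did all 4 listed below it. The median log2 ratio of the members was -0.32 above the lesion and -0.61 below, where the medians over all genes were -0.00 and 0.01. Without CYBA the median below the lesion was -0.38, and that above was -0.34. Of all genes, 51% above and 47.2% below had a ratio under 0. At the 1.5-fold limit, 1 of 5 members was lower above the lesion, where 1.94% of all genes were, and 2 of 4 were lower below it, where 4.38% of all genes were. None of the members was higher by 1.5-fold or more at either site, as 0.791% of genes were above and 1.16% below. The member past the limit above the lesion was CYBB, and those below it were CYBA and NCF4. Of all genes listed at both sites, 207 were lower above the lesion and 439 below it, and 70 were lower at both, which is 33.8% of the former and 15.9% of the latter.

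CYBB, the catalytic chain, was at 11.8 FPKM in cord labelled synj1+/+ and at 7.47 in cord labelled synj1+/- above the lesion, a log2 ratio of -0.59. This is 1.51-fold, just past the limit, and 1.85% of all genes had a ratio as low. Below the lesion CYBB was at 16.0 and 12.1 FPKM, a log2 ratio of -0.38, and 9.21% of all genes had a ratio as low. The ratio of CYBB was thus under 0 at both sites and past the limit above the lesion only, and it was the lowest of the members above the lesion, while below it CYBA and NCF4 had lower ratios.

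CYBA, its partner in the membrane, showed the opposite order of the sites. Above the lesion it was at 27.7 FPKM in the synj1+/+ group and 26.0 in the synj1+/- group, a log2 ratio of -0.09, and 31% of all genes had a ratio as low. Below the lesion it was at 67.1 and 30.7 FPKM, a log2 ratio of -1.10 or 2.15-fold, and 1.07% of all genes had a ratio as low. The CYBA level in cord labelled synj1+/+ below the lesion stands apart from the other 3 groups, which lie between 26.0 and 30.7 FPKM. In consequence the level of CYBA relative to CYBB was 4.19-fold in that group, against 2.35-fold in the synj1+/+ group above and 3.48-fold and 2.54-fold in the synj1+/- groups above and below.

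Of the cytosolic subunits, NCF4, which binds phosphatidylinositol 3-phosphate on phagosomes through its PX domain, was at 17.7 and 14.0 FPKM above the lesion, a log2 ratio of -0.32. Below the lesion NCF4 was at 30.1 and 16.4 FPKM, a log2 ratio of -0.83 or 1.78-fold, and 2.1% of all genes had a ratio as low. Like CYBA, CYBB and RAC2, NCF4 was highest in the synj1+/+ group below the lesion, and its other 3 group values lie between 14.0 and 17.7 FPKM. NCF1, the organizer whose phosphorylation starts the assembly, was at 45.2 and 34.7 FPKM above the lesion, a log2 ratio of -0.37. A share of 5.61% of all genes had a ratio as low. Its partner in the overlap, GTF2IRD2, was at 64.0 and 60.2 FPKM there, a log2 ratio of -0.09, and at 59.8 and 81.1 FPKM below the lesion, a log2 ratio of 0.43.

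RAC2, the Rac GTPase of blood cells, had the lowest level of the members in each group. It was at 2.84 and 2.12 FPKM above the lesion, a log2 ratio of -0.30, and at 2.91 and 2.78 FPKM below it, a log2 ratio of -0.05. Without the added 1 the ratio above the lesion was -0.42, the largest such shift among the members, because its level is close to the 1 that is added. RAC1, the Rac GTPase found in most cell types, was 110.2-fold as high as RAC2 in the synj1+/+ group above the lesion and had log2 ratios of 0.00 above and -0.08 below.

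The limit of 1.5-fold lies close to several of these ratios. At a looser limit, 0.32 on the log2 scale, 2 of 5 members (CYBB and NCF1) were lower above the lesion, where 7.45% of all genes were. Below it, 3 of 4 (CYBA, NCF4 and CYBB) were lower, where 11.5% of all genes were. At 2-fold, 0 of 5 members were lower above the lesion, where 0.564% of all genes were, and 1 of 4, CYBA, was lower below it, where 1.3% of all genes were.

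The sites were then set side by side within each genotype. Reads of each site were reduced and normalized separately, so these ratios also carry any difference in scale between the sites, although the median log2 ratio of below over above across 12023 genes was -0.00 in the synj1+/+ group and 0.02 in the synj1+/- group. In cord labelled synj1+/+ all 4 members had a ratio of below over above that exceeded 0, with a median log2 ratio of 0.57. CYBA was 2.37-fold, NCF4 1.66-fold, CYBB 1.33-fold and RAC2 1.02-fold as high below as above. By 1.5-fold or more, 2 of 4 members (CYBA and NCF4) were higher below, where 3.24% of all genes were. In cord labelled synj1+/- the 4 ratios also exceeded 0, with a median of 0.25, and the ratios ran from 0.21 for NCF4 to 0.63 for CYBB. By 1.5-fold or more, 1 of 4 (CYBB) was higher below, where 1.43% of all genes were.

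The genotype ratio below minus that above was -1.02 for CYBA and -0.52 for NCF4, and 0.21 for CYBB and 0.25 for RAC2. The members thus split, 2 with a lower ratio below the lesion and 2 with a lower ratio above it, and their median difference of -0.15 takes the sign of CYBA and NCF4. Without CYBA that median was 0.21. None of these differences was tested. A difference as low as that of CYBA was found in 0.882% of the genes listed at both sites, and as low as that of NCF4 in 4.18%.

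**Figure D2:**
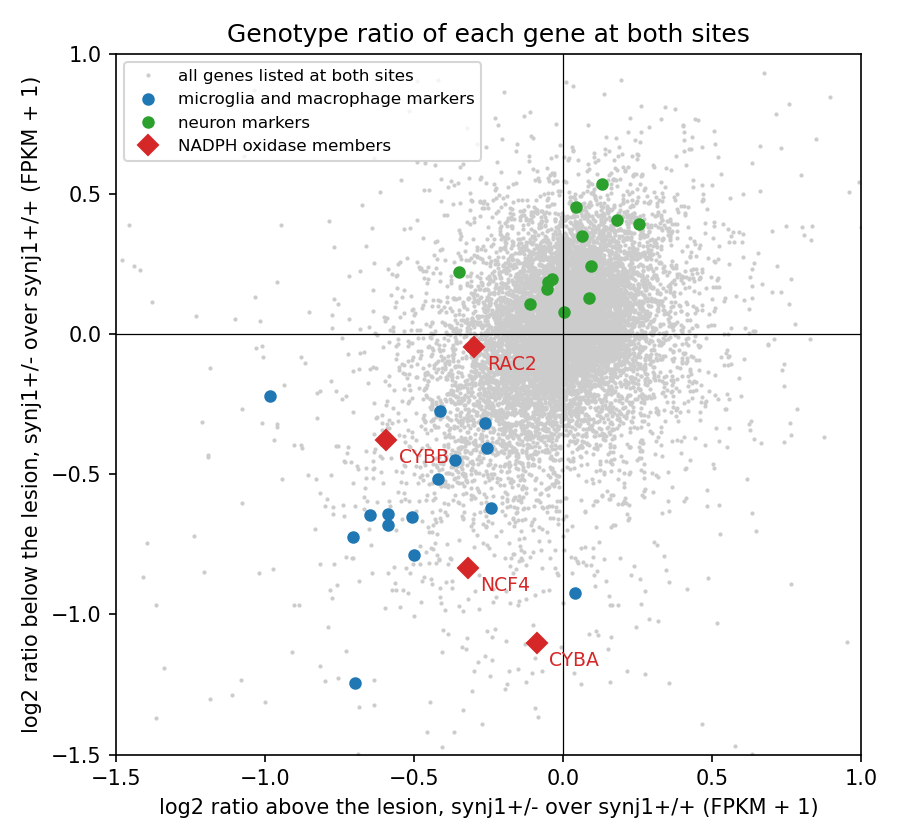
Log2 ratio of synj1+/- over synj1+/+ (FPKM plus 1) above the lesion (x axis) and below it (y axis) for 12023 genes listed at both sites, with the 4 NADPH oxidase members (red diamonds), microglia and macrophage markers (blue) and neuron markers (green). Points are group values without error, and 73 genes lie outside the plotted range. The 4 members lie below 0 on both axes, RAC2 nearest to 0 below the lesion (-0.05) and CYBA nearest to 0 above it (-0.09).

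The other genes of the enzyme and its assembly were described next. Of the list of other oxidase subunits and assembly factors, 10 of 11 symbols were listed at each site, and 0 were past the 1.5-fold limit at either site. Its median was -0.13 above and -0.27 below. The lowest ratio of that list at both sites was that of HVCN1, the proton channel that balances the charge moved by the oxidase, at -0.37 above (99.42 and 76.95 FPKM) and -0.52 below (128 and 88.8 FPKM). CYBC1, which is needed for CYBB protein to be made, had ratios of -0.19 and -0.02.

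Of 9 other NADPH oxidase catalytic and partner genes, NOX1 and NOXO1 were listed, and NOX3, NOX4, NOXA1, DUOX1, DUOX2, DUOXA1 and DUOXA2 were not. NOX1 was at 4.21 and 5.52 FPKM above the lesion, a log2 ratio of 0.32, and at 4.93 and 6.19 FPKM below it, a log2 ratio of 0.28. NOXO1 had ratios of -0.24 and -0.06. Neither gene was past the limit. A gene that is not listed need not be low, because MBP, MAG and CNP, abundant transcripts of myelin-forming cells, were not listed at either site.

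The next list held receptors and adaptors that start the respiratory burst in phagocytes or, as FCGR2B does, restrain it. Of these, 17 of 17 listed genes had a ratio under 0 above the lesion, with a median of -0.35. Below it 12 of 15 did, with a median of -0.40. Past the 1.5-fold limit were 3 lower genes above (TYROBP, FPR1 and FPR2), and 5 lower genes below (TYROBP, FCER1G, FCGR2B, FCGR3 and ITGB2), while FPR1 and FPR2 were higher below. TYROBP, the adaptor of TREM2 and other activating receptors, was at 87.8 and 55.9 FPKM above the lesion and at 132 and 72.5 FPKM below it, log2 ratios of -0.64 and -0.85. FCER1G, the chain through which Fc receptors signal, had ratios of -0.26 and -0.63. FCGR3, an activating receptor for IgG, was at 242 and 189 FPKM above the lesion and at 376 and 226 FPKM below, log2 ratios of -0.35 and -0.73.

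Kinases and lipid enzymes that act on the oxidase had medians of -0.14 at both sites. Of 20 listed above the lesion, 2 were lower past the limit, SYK at -0.66 and INPP5D at -0.63, and of 18 listed below, FGR was, at -0.66. SYK, the kinase downstream of Fc receptors, was at 29.8 and 18.5 FPKM above the lesion and at 36.4 and 25.9 FPKM below it. INPP5D (SHIP1), a phosphoinositide phosphatase of blood cells, was at 151 and 96.9 FPKM above and at 168 and 131 FPKM below. The ratios of the list ran from -0.66 to 0.17 above the lesion and from -0.66 to 0.26 below it.

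Regulators of Rac had medians of -0.10 at both sites, and of 19 listed above 0 were past the limit. Below the lesion 2 of 18 were lower, ARHGDIB at -0.65 and ARHGAP25 at -0.68. ARHGDIB, the GDP-dissociation inhibitor of blood cells that holds RAC2 in the cytosol, was at 196 and 155 FPKM above the lesion and at 282 and 180 FPKM below it. VAV1, an exchange factor for Rac in blood cells, had ratios of -0.51 and -0.37. ARHGDIA, the more widely used inhibitor, had ratios of -0.10 and -0.07.

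Of the transcription factors that act on oxidase genes, 8 of 8 listed had a ratio under 0 at each site, with medians of -0.23 above and -0.38 below. SPI1 (PU.1) was at 65.4 and 56.0 FPKM above and at 86.6 and 64.5 FPKM below, log2 ratios of -0.22 and -0.42. IRF8 was at 45.9 and 34.6 FPKM above and at 54.4 and 37.2 FPKM below, log2 ratios of -0.40 and -0.54. Past the 1.5-fold limit were CEBPA and RUNX1 above the lesion, at -0.60 and -0.63, and CEBPB below it, at -0.79. For the enzymes that remove superoxide and peroxide, the median was 0.03 above, with 5 of 14 under 0, and -0.21 below, with 10 of 12 under 0.

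In bulk tissue, fewer phagocytes and less RNA per phagocyte cannot be told apart, and most markers of these cells had lower values beside the members. Of 18 microglia and macrophage markers, all were listed above the lesion and 15 below. Their median log2 ratio was -0.46 above, with 7 of 18 lower by 1.5-fold, and -0.64 below, with 9 of 15 lower. Their summed level over the 15 genes listed at both sites was 3486 and 2476 FPKM above the lesion and 5352 and 3254 FPKM below it, in the synj1+/+ and synj1+/- groups. CD68, a lysosomal protein of macrophages, had ratios of -0.50 and -0.79, and LYZ2, lysozyme of myeloid cells, -0.70 and -1.24. AIF1 (IBA1) resembled CYBA, with ratios of 0.04 above and -0.93 below. SIGLECH and P2RY12 had ratios of 0.06 and -0.07 above the lesion and were not listed below it. A ratio under 0 was found for 16 of the 18 markers above and for all 15 below. Of the 15 markers listed at both sites, 12 had the lower ratio below the lesion. ADGRE1 (F4/80) was not among those 12, and like CYBB it had the lower ratio above the lesion, with values of -0.98 above and -0.22 below. The part of these markers in the members' ratios was not tested.

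Relative to the median of those markers, a scale chosen after seeing the data, the members' median was 0.14 above the lesion and 0.04 below it. On that scale CYBB at -0.13 above the lesion, and CYBA at -0.46 and NCF4 at -0.19 below it, kept a ratio under 0, and the other 6 ratios were above 0.

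Markers of monocytes and infiltrating macrophages had medians of -0.23 above (8 of 13 listed, 2 lower and 0 higher by 1.5-fold) and -0.63 below (9 of 13 listed, 5 lower and 0 higher). MS4A7, with the lowest ratio of that list at both sites, was at 11.4 and 3.92 FPKM above the lesion and at 28.0 and 11.7 FPKM below it. The listed genes with a ratio over 0 were ARG1 at both sites (0.38 above and 0.18 below) and LY6C2 above the lesion (0.14). Of 15 neutrophil markers, 5 were listed above and 6 below, with medians of 0.12 and -0.40. Past the 1.5-fold limit, 0 were lower and 0 higher above the lesion, and 1 was lower (S100A8) and 1 higher (LCN2) below it. LY6G, MPO, ELANE, CAMP, LTF, MMP8 and CXCR2 were listed at neither site. S100A8 and S100A9 were at 1.10 and 2.77 FPKM above the lesion in cord labelled synj1+/+ and at 5.41 and 13.4 FPKM below it, and in cord labelled synj1+/- at 1.28 and 2.91 FPKM above and at 2.04 and 9.86 FPKM below. Of 16 lymphocyte markers, 0 were listed above the lesion and 1 below, IL7R, at 3.89 and 1.56 FPKM.

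Other cell types also differed in the same groups. Of 9 fibroblast markers listed below the lesion, 7 were lower by 1.5-fold in cord labelled synj1+/-, with a median of -2.71, and their summed level over 8 genes was 472 FPKM against 122 FPKM. Above the lesion the sums were 114 and 98.5 FPKM, with a median of -0.49. PDGFRA alone gave 62.6 and 57.3 FPKM of the sums above the lesion, and 68.3 and 55.0 FPKM of those below it. The group in which CYBA was highest, synj1+/+ below the lesion, thus also had the highest fibroblast sum. It had the highest sums of microglia and macrophage (5352 FPKM), monocyte (2274 FPKM), neutrophil (509 FPKM) and endothelial markers (923 FPKM) as well. Single genes made up much of 3 of these sums in that group. SPP1 alone gave 1866 FPKM of the monocyte sum, CSF3R 458 FPKM of the neutrophil sum and LY6C1 465 FPKM of the endothelial sum. These sums are therefore not measures of the number of such cells. The sums of neuron, astrocyte, oligodendrocyte and red cell markers were highest in other groups. Neuron markers had medians of 0.07 above, with 5 of 15 under 0, and 0.22 below, with 0 of 13 under 0, and none was past the 1.5-fold limit. Astrocyte markers had medians of -0.15 and -0.17, oligodendrocyte markers -0.08 and 0.07, and endothelial markers 0.03 and -0.17. Of the 3 lists, 1 endothelial marker was past the 1.5-fold limit, lower below the lesion. Of 5 red cell markers, 5 were higher by 1.5-fold above the lesion and 1 below it, with medians of 2.17 and 0.37. The part of any of these cell types in the members' ratios was not tested.

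**Figure D3:**
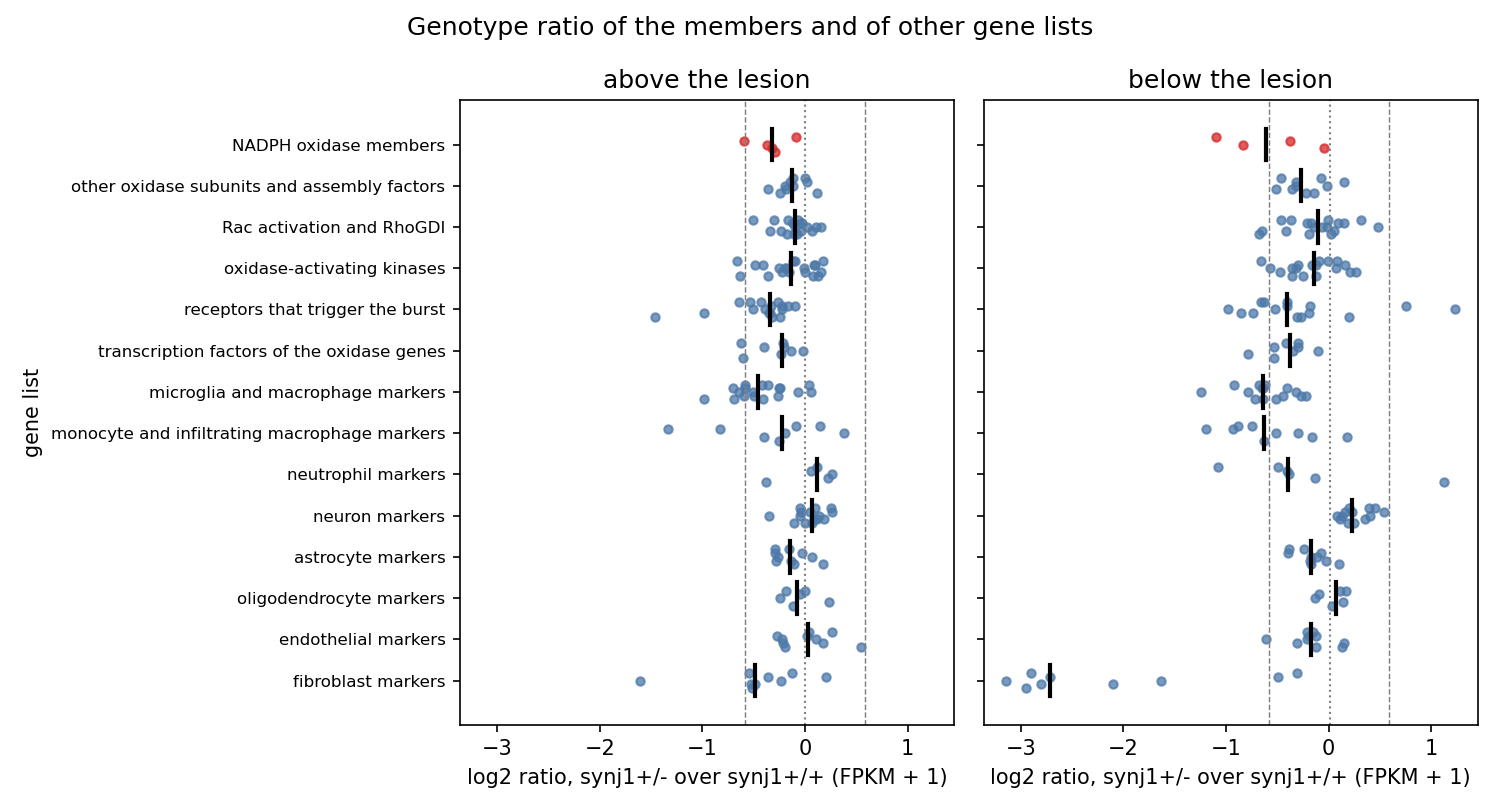
Log2 ratio of synj1+/- over synj1+/+ (FPKM plus 1, x axis) for each listed gene of the members (red) and of 13 other lists (blue) above and below the lesion, with black bars at list medians, a dotted line at the median of all genes and dashed lines at 1.5-fold. Points are group values without error. The members' median of -0.32 above and -0.61 below lies between that of the other oxidase genes (-0.13 and -0.27) and that of the microglia and macrophage markers (-0.46 and -0.64).

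The genes most alike in pattern were found by the distance between their 4 centred log2 values and the mean of the 4 members listed at both sites, among genes with a deposited value of at least 10 in each group. The 8 nearest were TMEM140, TMEM86A, EVA1B, HEXA, CTSL, GRN, ARHGAP19 and DOK1, at distances from 0.017 to 0.094 over 4 group values, where the members themselves lay 0.17 (NCF4) to 0.50 (RAC2) from their own mean. HEXA, CTSL and GRN encode lysosomal proteins. HEXA was at 113 and 85.1 FPKM above the lesion and at 170 and 116 FPKM below it, and GRN at 239 and 190 FPKM above and at 339 and 232 FPKM below, in the synj1+/+ and synj1+/- groups. With 4 values per gene, likeness of this kind describes the table only.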

How the data were processed

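Total RNA from spinal cord was extracted with TRIzol, and libraries were made with the TruSeq RNA Sample Prep Kit v2 from random primers, per the labels. The authors removed reads at random until all libraries of a site had the same number, aligned them with STAR 2.5.4b to GRCm38.p6 (per the submitters' processing notes), and made values with cufflinks (Cuffdiff 1.3.0) and upper quartile normalization. The deposited FPKM values combine the 3 libraries of a group, and were read as FPKM plus 1. Entries are genes with a completed test, and the higher of the 2 FPKM values was at least 1.18 above and 1.21 below the lesion. The authors' fold changes, p-values and q-values in the table, and the shorter list, which holds only such values, were not used.

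Groups were taken from the genotype and site in the sample descriptions. The authors' tests being left unused, and a single combined value per group giving no spread for a test of its own, ratios, counts past a 1.5-fold limit and medians were computed beside those of all genes. The genes named are the members, SYNJ1, genes of 17 other lists past the limit or with the highest value, and the 8 nearest profiles. GTF2IRD2 and GM20388 were added as neighbours, and list genes named outside this rule were chosen after their values were seen. Some items are not reported here. The members and lists were chosen with earlier results of these data known. Alternatives were other limits, pseudocounts, centring and a filter on low values. Positions came from GENCODE M21 and sequences from RefSeq. Python 3.11.15, numpy 2.4.6, pandas 2.3.3 and matplotlib 3.10.9 were used, and the calculations were tested on simulated data.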

Additional observations from a re-analysis of the deposited data

How the results depend on the processing

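Values without each replicate could not be computed, because the table holds 1 value per group. No paired analysis was possible because each group has a single combined value. With a limit of 0.32 on the log2 scale, 2 members were lower above the lesion, and with a limit of 2-fold 0 above and 1 below. FPKM plus 10 left 0 past the limit above the lesion. Under these limits, pseudocounts, scales over all or high genes and a filter at FPKM 1, all 9 ratios of single members kept their sign, and CYBB above the lesion, at 1.51-fold, moved most, between -0.66 and -0.32.

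The medians moved as follows. Without a pseudocount they were -0.38 above and -0.64 below, with a difference of -0.14, and 0.60 and 0.32 for below over above in synj1+/+ and synj1+/-. With FPKM plus 10 the same values were -0.21, -0.42, -0.16, 0.39 and 0.16. Centred on all genes, the median below was -0.62, the difference -0.17 and the synj1+/- site ratio 0.23, and centred on genes above FPKM 10 they were -0.63, -0.17 and 0.23.

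Other settings were chosen after seeing the data. Centred on the microglia and macrophage markers, 0 members were lower at either site, and the medians turned to 0.14 above and 0.0352 below, with a difference of 0.0303 and site ratios of 0.25 and 0.0648. CYBA (0.37), NCF1 (0.0915), NCF4 (0.14) and RAC2 (0.16) turned above the lesion, and CYBB (0.26) and RAC2 (0.60) below it. Without CYBA, the medians were -0.34 above and -0.38 below with 1 member lower below, the difference turned to 0.21, and the site ratios were 0.41 and 0.28. Without NCF1 the median above was -0.31.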

Other observations

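FPR1 and FPR2, receptors for formylated peptides that trigger the burst in neutrophils and macrophages, were low in all groups and had opposite directions at the sites. FPR1 was at 1.95 and 0.490 FPKM above the lesion and at 0.718 and 1.90 FPKM below it, and FPR2 at 2.02 and 0.0978 FPKM above and at 0.520 and 2.57 FPKM below, in the synj1+/+ and synj1+/- groups. Their log2 ratios were -0.99 and -1.46 above and 0.76 and 1.23 below. Both were singled out after their values were seen, and neither difference was tested.

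LCN2, which is made by neutrophils and by reactive astrocytes, was at 20.3 and 45.4 FPKM below the lesion, a log2 ratio of 1.12, and at 5.49 and 6.59 FPKM above it. GPX3, a secreted glutathione peroxidase, was at 19.1 and 11.0 FPKM above the lesion, a log2 ratio of -0.74 and the single gene of the superoxide and peroxide removal list past the 1.5-fold limit at that site, and at 25.2 and 21.4 FPKM below it.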
